A study of Mus musculus with 6 samples.

Results

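Border-associated macrophages are the macrophages that line the vessels, meninges and choroid plexus of the brain. The set examined here comprised 9 of their marker genes, Mrc1, Cd163, Lyve1, Pf4, F13a1, Cbr2, Folr2, Clec10a and Dab2, chosen by gene symbol. All 9 were found among the 20129 genes of the deposited table, and all 9 passed the filter on low values. None of the 9 differed between Il3-/-5xFAD and 5xFAD samples at an adjusted p under 0.05. Lyve1, F13a1 and Folr2 were lower in each of the 3 Il3-/-5xFAD libraries than in any 5xFAD library, as were 11.5% of all tested genes. The margin of Folr2 was narrow (4.97 against 4.99 CPM) and was lost after median-ratio rescaling or quantile normalization. Dab2, Cd163 and Clec10a had near-equal group means.

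Border-associated macrophages descend, like microglia, from early myeloid precursors, but they sit at the interfaces of brain, blood and cerebrospinal fluid and are rich in scavenger and endocytic receptors. They carry CD45 and CD11b, so a sort for these proteins collects them together with microglia and blood myeloid cells. Several of the 9 genes are also used by other cells: Pf4 by platelets, F13a1 by monocytes and platelets, Lyve1 by lymphatic endothelium, Clec10a by dendritic cells.

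The study compared Il3-/-5xFAD mice, which lack interleukin-3, with 5xFAD mice, both on the C57BL6/J strain. All mice carried 5xFAD, a set of mutant human transgenes under the neuronal Thy1 promoter that causes amyloid deposition, and no group without it was included. Live CD45+ CD11b+ brain cells, labelled as microglia, were sorted at 5 months of age. Each of the 3 libraries per genotype was a pool of 4 animals, 2 male and 2 female (Il3-/-5xFAD replicates 1, 2 and 3; 5xFAD replicates 4, 5 and 6). The comparison asks how the transcriptome of these cells differs when IL-3 is missing from an amyloid-bearing brain.

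Levels are in CPM (gene reads in every 1000000 library reads), and libraries held 27970850 to 37605490 reads. Il3 had no read in Il3-/-5xFAD replicates 1, 2 and 3, against 54, 61 and 29 reads in 5xFAD replicates 4, 5 and 6. A count of 0 allows up to 3 reads, or 0.0909 to 0.107 CPM in the Il3-/-5xFAD libraries, from counting error only. All 10 listed microglial genes were abundant, with summed levels of 29025 to 31714 CPM in Il3-/-5xFAD and 27706 to 29470 CPM in 5xFAD libraries. The 9 border-associated macrophage genes had summed levels of 182, 148 and 163 CPM for Il3-/-5xFAD replicates 1, 2 and 3, against 174, 192 and 212 CPM for 5xFAD replicates 4, 5 and 6. These sums overlapped between the genotypes. For any difference in such bulk libraries, macrophage number, RNA per macrophage and RNA of other cells that use these genes cannot be told apart.

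Per kilobase of the longest annotated transcript, Mrc1 was the highest of the 9 genes and Lyve1 the lowest. Mrc1 stood at 11.2 ± 2.10 CPM per kilobase in Il3-/-5xFAD and 12.8 ± 1.83 in 5xFAD (SD, n = 3 each). Lyve1 stood at 0.761 ± 0.0672 CPM per kilobase in Il3-/-5xFAD and 1.52 ± 0.298 in 5xFAD (SD, n = 3 each). By the mean over all 6 libraries the order was Mrc1, F13a1, Pf4, Dab2, Cbr2, Folr2, Clec10a, Cd163 and Lyve1. Means of F13a1, Pf4 and Dab2 lay between 8.54 and 9.02 CPM per kilobase, closer together than their spread over libraries, and Clec10a (3.00) and Cd163 (2.74) were likewise not separated. The mean of Mrc1 exceeded that of 59.1% of 10766 tested genes with a length, and that of Lyve1 exceeded 12.2%. For scale, the microglial receptor gene P2ry12 averaged 1271 CPM per kilobase over the same libraries.

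**Figure D1:**
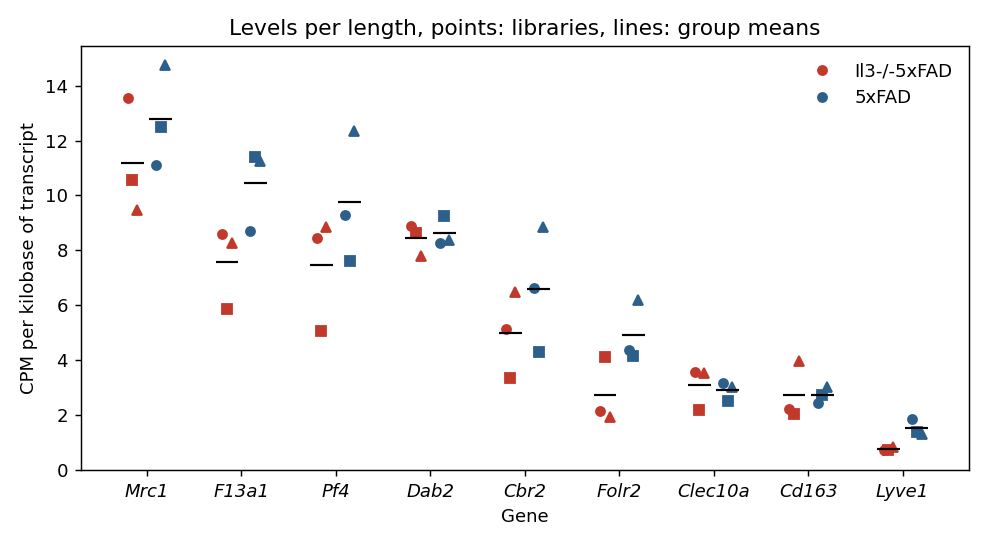
CPM per kilobase of the longest annotated transcript (y axis) for the 9 genes (x axis), with Il3-/-5xFAD in red on the left and 5xFAD in blue on the right of each gene. Points are libraries and lines are group means (n = 3 each); Mrc1 is highest and Lyve1 lowest, and the point clouds of F13a1, Pf4 and Dab2 overlap.

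Of the surface receptors, Lyve1 and Folr2 had the largest differences in the fit with a pseudocount of 1, and neither passed the test. Lyve1, the hyaluronan receptor of perivascular macrophages and lymphatic vessels, was at 2.08, 2.10 and 2.43 CPM in Il3-/-5xFAD replicates 1, 2 and 3, against 5.40, 4.03 and 3.80 CPM in 5xFAD replicates 4, 5 and 6. Every Il3-/-5xFAD value lay below every 5xFAD value. The gap between the groups was wider than the range of the Il3-/-5xFAD pools but narrower than the range of the 5xFAD pools. These levels rested on 62, 59 and 80 reads in Il3-/-5xFAD and on 151, 118 and 143 reads in 5xFAD. The group means were 2.20 ± 0.194 CPM in Il3-/-5xFAD and 4.41 ± 0.863 CPM in 5xFAD (SD, n = 3 each), a ratio of 0.499. The log2 difference of CPM + 1 was -0.75 ± 0.23 (SE), with a 95% interval of -1.25 to -0.24 and a limma adjusted p of 0.128. The pseudocount shrinks the difference of so low a gene, and edgeR on the recovered reads gave -0.997 (edgeR adjusted p = 0.173).

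Folr2, the folate receptor beta of tissue macrophages, was at 2.59, 4.97 and 2.33 CPM in Il3-/-5xFAD replicates 1, 2 and 3, against 5.26, 4.99 and 7.47 CPM in 5xFAD replicates 4, 5 and 6. The groups did not overlap, but Il3-/-5xFAD replicate 2 lay just under 5xFAD replicate 5, and after median-ratio rescaling or quantile normalization the groups overlapped. Means were 3.30 ± 1.46 CPM in Il3-/-5xFAD and 5.91 ± 1.36 CPM in 5xFAD (SD, n = 3 each). The log2 difference was -0.72 ± 0.27 (SE), with a 95% interval of -1.30 to -0.13 (limma adjusted p = 0.205). Folr2 has an exon that overlaps an exon of Gm10602 on the opposite strand by up to 474 bases. No source used here gives the strand setting of the counting, so reads of the pair cannot be told apart.

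Mrc1, the mannose receptor CD206 that is commonly used to identify these macrophages, was at 72.7, 56.8 and 50.9 CPM in Il3-/-5xFAD replicates 1, 2 and 3, against 59.7, 67.0 and 79.2 CPM in 5xFAD replicates 4, 5 and 6. The groups overlapped, since Il3-/-5xFAD replicate 1 exceeded 2 of the 5xFAD libraries. Its log2 difference was -0.19 ± 0.14 (SE), with a 95% interval of -0.50 to 0.11 (limma adjusted p = 0.524). On the fold scale of CPM + 1 that interval ran from 0.709 to 1.08.

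Cd163, the scavenger receptor that takes up haemoglobin bound to haptoglobin, was at 9.84, 9.13 and 17.7 CPM in Il3-/-5xFAD replicates 1, 2 and 3, against 10.8, 12.1 and 13.5 CPM in 5xFAD replicates 4, 5 and 6. Il3-/-5xFAD replicate 3 held the highest level of all 6 libraries and the other two Il3-/-5xFAD libraries the lowest. Means were 12.2 ± 4.74 CPM in Il3-/-5xFAD and 12.2 ± 1.37 CPM in 5xFAD (SD, n = 3 each). The log2 difference was -0.05 ± 0.23 (SE), with a 95% interval of -0.54 to 0.45 (limma adjusted p = 0.946), and without Il3-/-5xFAD replicate 3 it was -0.32 (limma adjusted p = 0.288).

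Clec10a, a galactose-binding lectin of macrophages and dendritic cells, was at 8.33, 5.11 and 8.21 CPM in Il3-/-5xFAD replicates 1, 2 and 3, against 7.44, 5.88 and 7.05 CPM in 5xFAD replicates 4, 5 and 6. Il3-/-5xFAD libraries held both the highest and the lowest of these levels. The log2 difference was 0.06 ± 0.22 (SE), with a 95% interval of -0.42 to 0.53 (limma adjusted p = 0.930). Of the stretches of 50 bases in annotated Clec10a transcripts, 9.02% also occur in transcripts of another gene, nearly all in its relative Mgl2. Mgl2 itself was at 16.1 ± 6.26 CPM in Il3-/-5xFAD and 15.3 ± 3.29 CPM in 5xFAD (SD, n = 3 each), so a small part of either value is uncertain.

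**Figure D2:**
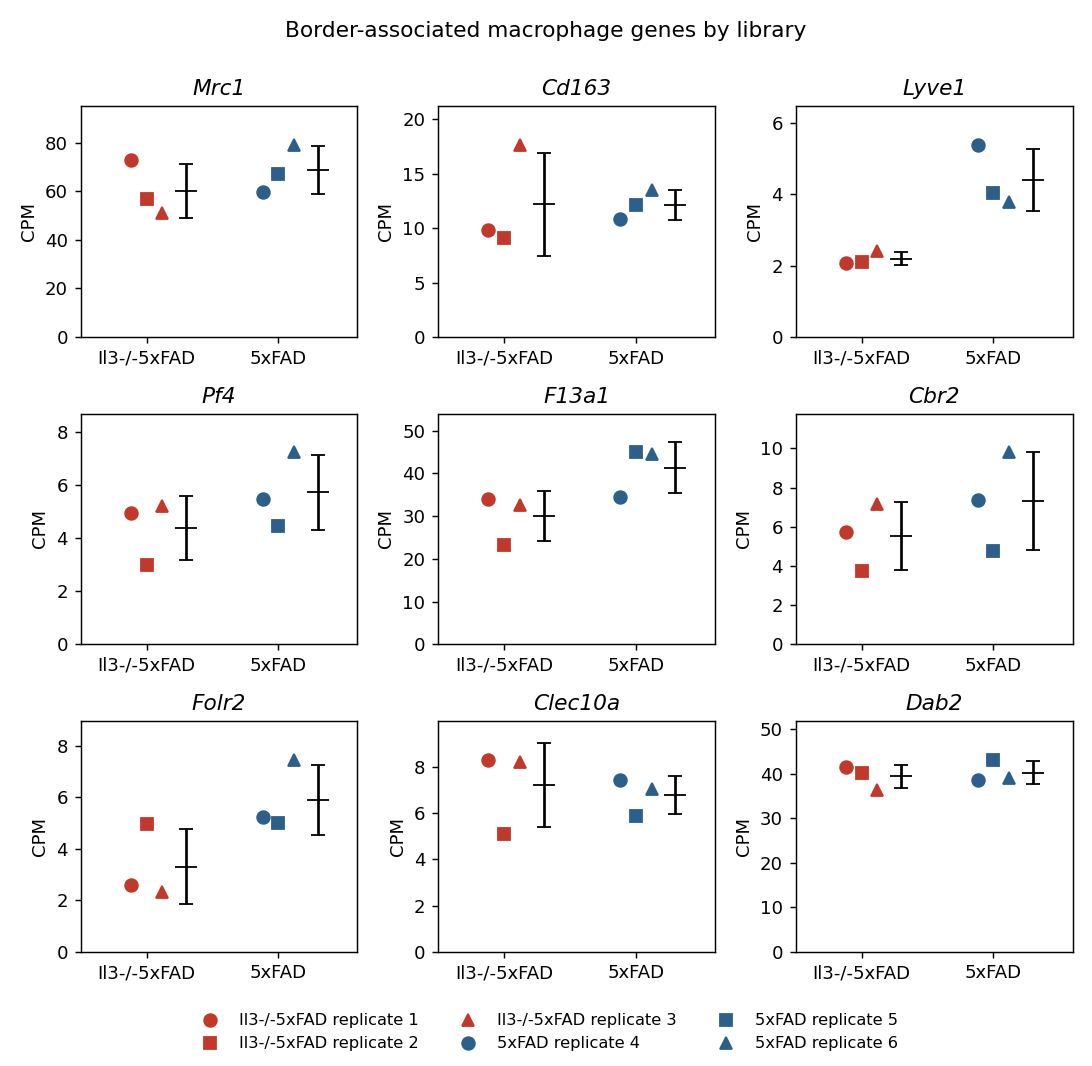
CPM (y axis, from 0) of each of the 9 genes in the 3 Il3-/-5xFAD libraries (red, left) and the 3 5xFAD libraries (blue, right), with one symbol per replicate; black marks are group means with SD (n = 3). The groups are separate for Lyve1, F13a1 and Folr2, the last by a narrow margin between Il3-/-5xFAD replicate 2 (4.97 CPM) and 5xFAD replicate 5 (4.99 CPM), and overlap in the other panels.

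Of the genes for secreted and intracellular proteins, F13a1 had groups that did not overlap. F13a1, the A subunit of coagulation factor XIII, a transglutaminase that cross-links fibrin, was at 34.0, 23.3 and 32.7 CPM in Il3-/-5xFAD replicates 1, 2 and 3, against 34.4, 45.0 and 44.5 CPM in 5xFAD replicates 4, 5 and 6. Il3-/-5xFAD replicate 1 and 5xFAD replicate 4 nearly met, and the separation came from the other libraries. Means were 30.0 ± 5.85 CPM in Il3-/-5xFAD and 41.3 ± 6.00 CPM in 5xFAD (SD, n = 3 each). The log2 difference was -0.46 ± 0.16 (SE), with a 95% interval of -0.80 to -0.12 (limma adjusted p = 0.166).

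Pf4, which encodes the chemokine CXCL4, was at 4.97, 2.98 and 5.21 CPM in Il3-/-5xFAD replicates 1, 2 and 3, against 5.47, 4.48 and 7.26 CPM in 5xFAD replicates 4, 5 and 6. Cbr2, a carbonyl reductase, was at 5.71, 3.73 and 7.18 CPM in Il3-/-5xFAD replicates 1, 2 and 3, against 7.36, 4.78 and 9.81 CPM in 5xFAD replicates 4, 5 and 6. For both genes Il3-/-5xFAD replicate 2 was the lowest library and 5xFAD replicate 6 the highest, with 5xFAD replicate 5 inside the Il3-/-5xFAD range. The log2 difference of Pf4 was -0.33 ± 0.25 (SE), with a 95% interval of -0.87 to 0.21 (limma adjusted p = 0.552). The log2 difference of Cbr2 was -0.34 ± 0.27 (SE), with a 95% interval of -0.93 to 0.26 (limma adjusted p = 0.583). Of the 50-base stretches of annotated Cbr2 transcripts, 12.1% also occur in Gm11771, so its count may miss reads that map to both.

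Dab2, an adaptor that links receptors to clathrin for endocytosis, was at 41.5, 40.2 and 36.4 CPM in Il3-/-5xFAD replicates 1, 2 and 3, against 38.5, 43.2 and 39.1 CPM in 5xFAD replicates 4, 5 and 6. It varied least of the 9 genes within 5xFAD and within Il3-/-5xFAD, with coefficients of variation of 6.66% in Il3-/-5xFAD and 6.37% in 5xFAD. Its log2 difference of -0.03 ± 0.11 (SE) had the narrowest interval, -0.26 to 0.20 (limma adjusted p = 0.920).

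Across the comparison, limma called 105 of 11900 tested genes (0.882%) at an adjusted p under 0.05, and 0 of the 9. By edgeR on the recovered reads 0 of the 9 passed, where 0.504% of tested genes did, and by DESeq2 0 of the 9, where 5.08% did. At an unadjusted p under 0.05, limma picked 3 of the 9, Lyve1, F13a1 and Folr2, all lower in Il3-/-5xFAD, where 9.83% of tested genes were lower at that threshold. Lower levels with no overlap between the groups held for the same 3 of 9 genes, against 11.5% of tested genes, and higher levels with no overlap for 0 of 9, against 9.65%. After median-ratio rescaling or quantile normalization the first count was 2, and without 5xFAD replicate 5 it was 5. The share of all tested genes was not counted in these settings, and leaving out a library can only keep or raise such a count. Of the 9 log2 differences 8 were negative, where 50.1% of all tested genes were. The median of the 9 was -0.33, while the median of all tested genes was 0.00. Among the 8, Cd163 (-0.05) and Dab2 (-0.03) were near 0 and changed sign in 6 and 2 of 16 alternatives. Leaving out Il3-/-5xFAD replicate 2 brought the median of the 9 to -0.12, and so did leaving out 5xFAD replicate 6. With a library left out, the genes called in all numbered from 11 (no 5xFAD replicate 6) to 587 (no Il3-/-5xFAD replicate 3), and 0 of the 9 passed in any of these fits.

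**Figure D3:**
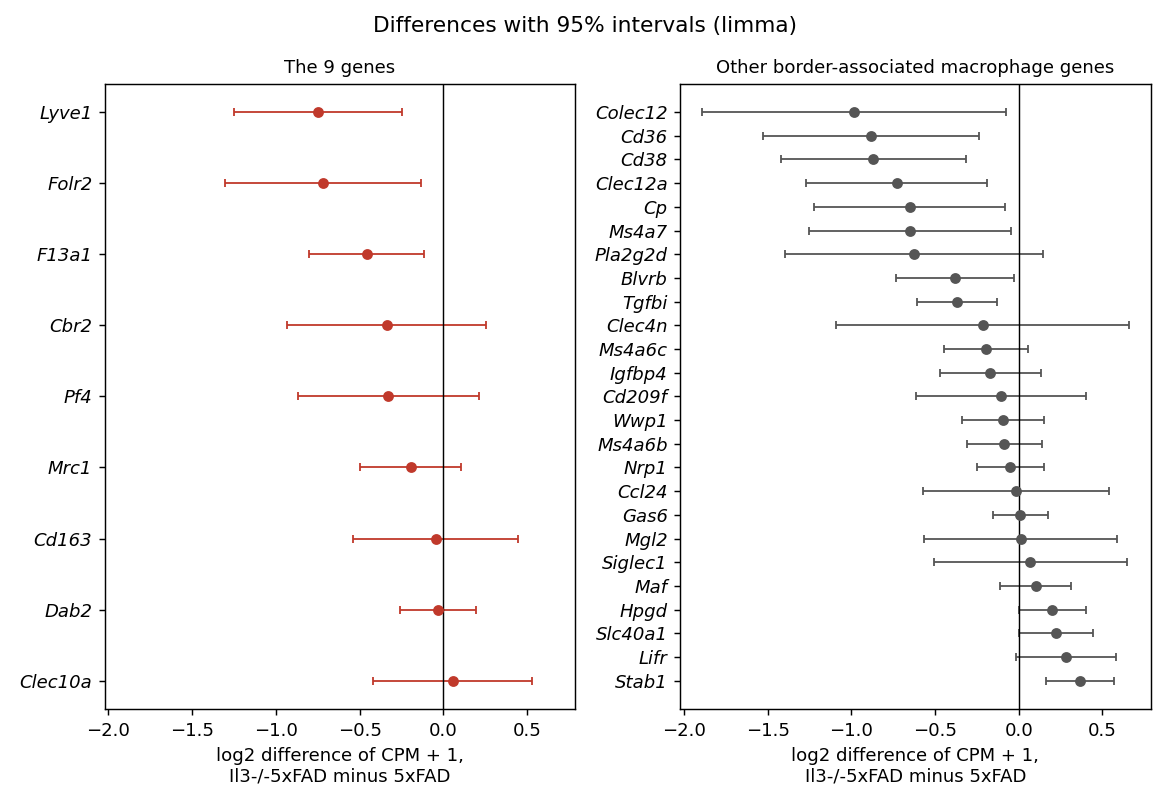
Log2 differences of CPM + 1, Il3-/-5xFAD minus 5xFAD (x axis), with 95% intervals from limma, for the 9 genes (left) and for 25 tested other genes of border-associated macrophages (right), ordered by size. The intervals of Lyve1, Folr2 and F13a1 lie below 0 before adjustment for the number of genes tested, and the other 6 on the left span 0.

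The 9 genes did not share a single profile over the libraries. Profiles were compared as the root mean square difference of log2(CPM + 1) values, each centred on the gene's mean over the 6 libraries. Pf4 and Cbr2 were the closest pair (0.12) and Folr2 and Clec10a the farthest (0.62). Il3-/-5xFAD replicate 2 was the lowest of all libraries for 5 of the 9 genes, Cd163, Pf4, F13a1, Cbr2 and Clec10a. 5xFAD replicate 6 was the highest for 4 of them, Mrc1, Pf4, Cbr2 and Folr2. The mean centred profile of the 9 genes was -0.10, -0.32 and -0.05 in Il3-/-5xFAD replicates 1, 2 and 3, against 0.11, 0.04 and 0.31 in 5xFAD replicates 4, 5 and 6. Among 9801 other tested genes averaging 5 CPM or more, Trps1 (root mean square difference 0.031), Sept11 (0.035), Eif1ax (0.045), 9430016H08Rik (0.047) and Pdap1 (0.048) had the most similar profiles. The median over those 9801 genes was 0.243, and a flat profile, with no change over the libraries, differed by 0.193. None of these 5 genes is in a list of border-associated macrophage markers used here.

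Markers of other cell types moved over the same libraries, and their part in these values was not tested. All 10 neutrophil genes were measured, summing to 213 to 832 CPM in Il3-/-5xFAD and 1224 to 3269 CPM in 5xFAD, and 7 of 8 classical monocyte genes, summing to 56.4 to 131 CPM in Il3-/-5xFAD pools and 128 to 221 CPM in 5xFAD pools. The monocyte gene Ly6c2 was at 4.97 ± 1.68 CPM in Il3-/-5xFAD and 18.99 ± 6.14 CPM in 5xFAD (SD, n = 3 each). The 6 tested monocyte genes had a mean centred profile of -0.09, -1.14 and -0.50 in Il3-/-5xFAD replicates 1, 2 and 3, against 0.14, 0.88 and 0.71 in 5xFAD replicates 4, 5 and 6. F13a1, itself a monocyte gene, had -0.04, -0.56 and -0.09 in the same Il3-/-5xFAD libraries, against -0.02, 0.36 and 0.35 in 5xFAD. Both were lowest in Il3-/-5xFAD replicate 2 and highest in 5xFAD replicates 5 and 6. So were the means of the neutrophil genes, the dendritic cell genes and the other border-associated macrophage genes. The last mean was -0.03, -0.24 and -0.08 in Il3-/-5xFAD replicates 1, 2 and 3, against -0.01, 0.24 and 0.12 in 5xFAD replicates 4, 5 and 6.

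All 8 choroid plexus genes were measured, summing to 63.9 to 132 CPM in Il3-/-5xFAD and 184 to 520 CPM in 5xFAD. Ttr, which encodes transthyretin, was at 55.0 ± 19.8 CPM in Il3-/-5xFAD and 199.5 ± 112 CPM in 5xFAD (SD, n = 3 each). The 4 tested choroid plexus genes had a mean centred profile of -0.86, -0.11 and -1.17 in Il3-/-5xFAD replicates 1, 2 and 3, against 0.47, 0.27 and 1.39 in 5xFAD replicates 4, 5 and 6. Folr2 had -0.57, 0.17 and -0.67 in Il3-/-5xFAD, against 0.23, 0.17 and 0.67 in 5xFAD. Within Il3-/-5xFAD both were highest in replicate 2, and within 5xFAD both were highest in replicate 6. Folr1, the epithelial relative of Folr2, was at 0.734 ± 0.393 CPM in Il3-/-5xFAD and 1.31 ± 1.06 CPM in 5xFAD (SD, n = 3 each), and the 2 genes shared no stretch of 50 bases.

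**Figure D4:**
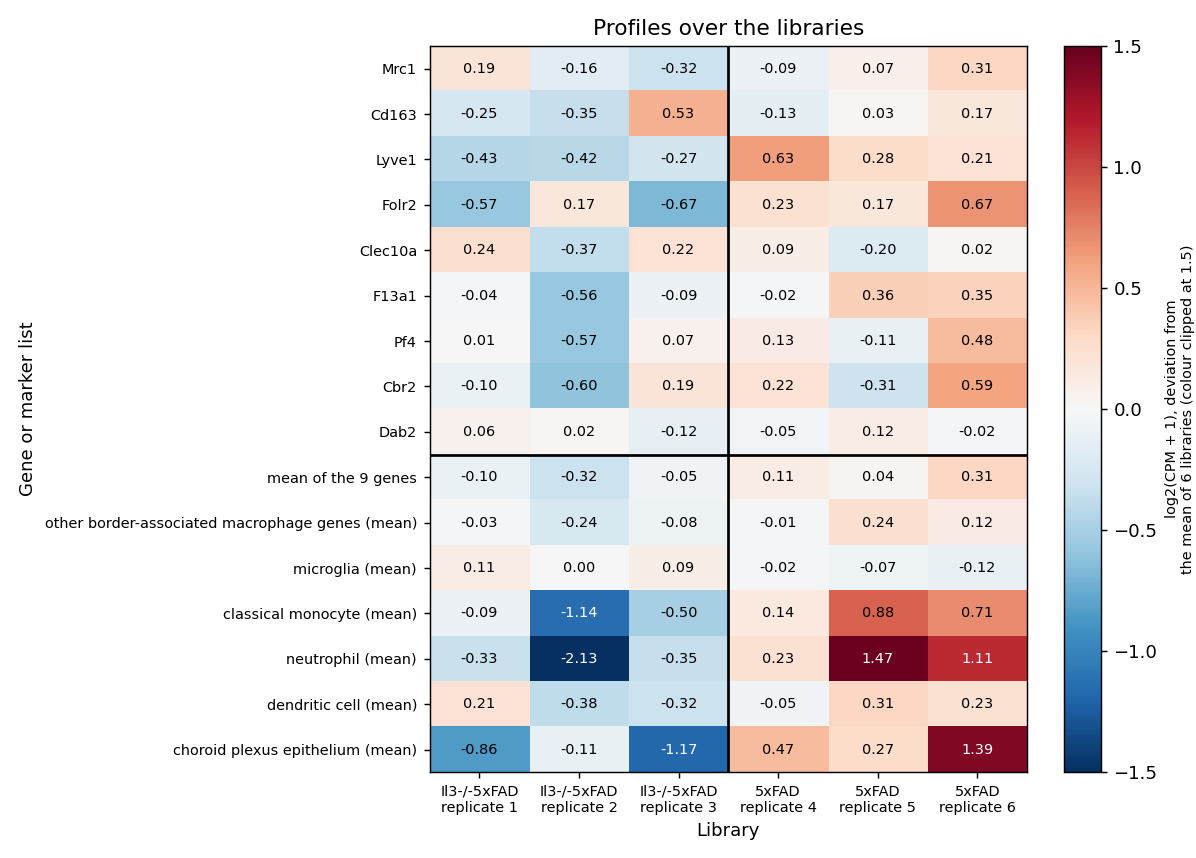
Deviation of log2(CPM + 1) from the mean of the 6 libraries (colour and printed values) for the 9 genes, their mean and the means of 6 marker lists (rows) in each library (columns, Il3-/-5xFAD on the left). Il3-/-5xFAD replicate 2 is low for Pf4, F13a1, Cbr2 and the monocyte and neutrophil lists, and 5xFAD replicate 6 is high for Folr2, Cbr2, Pf4 and the choroid plexus list.

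Of 9 platelet and megakaryocyte genes, 7 were measured, summing to 18.9 to 27.0 CPM in Il3-/-5xFAD and 17.4 to 20.3 CPM in 5xFAD. The platelet chemokine gene Ppbp, which lies beside Pf4 in its cluster, was at 0, 0 and 0.485 CPM in Il3-/-5xFAD replicates 1, 2 and 3 and at 0, 0 and 0.160 CPM in 5xFAD replicates 4, 5 and 6. The most abundant of the list, Gp9, which encodes a subunit of the platelet von Willebrand factor receptor, was at 15.5, 11.9 and 17.4 CPM in Il3-/-5xFAD replicates 1, 2 and 3, against 10.7, 9.94 and 13.5 CPM in 5xFAD replicates 4, 5 and 6. Gp1ba, for another subunit of that receptor, was at 3.19 to 4.21 CPM in Il3-/-5xFAD and 3.48 to 4.48 CPM in 5xFAD. Ppbp and Gp1bb were thus at or near 0 while Gp9 and Gp1ba were not, and the part of platelet RNA in the Pf4 values was not tested. Of 6 lymphatic endothelial genes, 5 were measured, summing to 16.3 to 25.6 CPM in Il3-/-5xFAD and 17.6 to 21.7 CPM in 5xFAD. Nearly all of that sum was Prox1, while Flt4 reached at most 0.437 CPM, Pdpn at most 0.273 and Mmrn1 at most 0.0683 in any library. All 7 dendritic cell genes were measured, summing to 23.4 to 43.1 CPM in Il3-/-5xFAD and 38.6 to 41.4 CPM in 5xFAD. The sum was lowest in Il3-/-5xFAD replicate 2, as was Clec10a, but that library was lowest for 5 of the 9 genes. Elsewhere the centred profiles parted. Clec10a had 0.22 in Il3-/-5xFAD replicate 3 and -0.20 in 5xFAD replicate 5, against -0.32 and 0.31 for the mean of the tested dendritic cell genes.

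The promoters of Pf4 and Cbr2, the pair with the most similar profiles, and of Folr2, which stood apart from Clec10a most, are shown from RefSeq (GRCm38.p6). Each runs from 250 bases before to 50 bases after the outermost listed start, 5′ to 3′ on the strand of the gene. Capitals mark the core motif of PU.1, the main transcription factor of macrophages (GAGGAA, or TTCCTC on the other strand), and the half-site of MAF factors (TGCTGA, or TCAGCA on the other strand).
Pf4 promoter, chr5:90772185-90772484, plus strand: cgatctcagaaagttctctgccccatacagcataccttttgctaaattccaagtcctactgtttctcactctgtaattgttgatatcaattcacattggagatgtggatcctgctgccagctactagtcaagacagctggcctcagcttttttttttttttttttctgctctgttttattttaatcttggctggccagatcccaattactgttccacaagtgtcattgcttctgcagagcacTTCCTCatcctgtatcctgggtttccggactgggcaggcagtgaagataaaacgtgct
Cbr2 promoter, chr11:120731972-120732271, minus strand: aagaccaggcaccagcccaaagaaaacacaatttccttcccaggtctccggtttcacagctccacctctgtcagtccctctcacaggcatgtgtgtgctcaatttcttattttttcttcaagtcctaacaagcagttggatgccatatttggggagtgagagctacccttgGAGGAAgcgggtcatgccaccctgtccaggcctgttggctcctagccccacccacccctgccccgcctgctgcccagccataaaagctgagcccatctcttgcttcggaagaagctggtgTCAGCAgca
Folr2 promoter, chr7:101857141-101857440, minus strand: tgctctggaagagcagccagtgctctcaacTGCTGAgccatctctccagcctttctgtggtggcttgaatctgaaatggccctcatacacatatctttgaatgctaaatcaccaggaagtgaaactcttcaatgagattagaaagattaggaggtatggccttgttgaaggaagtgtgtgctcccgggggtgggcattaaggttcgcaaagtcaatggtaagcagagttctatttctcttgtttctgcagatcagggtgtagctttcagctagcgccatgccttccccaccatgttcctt
Pf4 holds 1 PU.1 match, Cbr2 holds 1 PU.1 and 1 MAF match, and Folr2 holds 1 MAF match, with no overlap between the motifs. Of 10 promoters listed for 7 of the 9 genes, 7 hold the PU.1 letters and 4 the MAF letters, while 28.3% and 19.5% of 32851 promoters of the same length hold them. In all, 9 motifs were searched on both strands, and the 2 motifs and 3 promoters shown were chosen after matches and levels had been seen, so these counts support nothing. The others, some of which overlap the 2 kept, were AGGAAGT (4 of 10 promoters, against 9.35% of all), GAGGAAGT (2, against 3.20%), AGAGGAA (1, against 10.4%), TGCTGAC (1, against 4.67%), TGACTCA (1, against 5.20%), TATAAA (0, against 13.6%) and CANNTG (10, against 72.3%). Such matches are descriptions of letters, and binding was not measured.

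A wider list of 28 other genes of border-associated macrophages held 25 that passed the filter on low values. None of the 25 passed the limma threshold, and 9 had an unadjusted p under 0.05 in either direction, where 16.5% of all tested genes did. All of these but Stab1 were lower in Il3-/-5xFAD, where 9.83% of tested genes were lower at that threshold. By edgeR 0 of the 25 passed, where 0.504% of all tested genes did. Stab1 and Tgfbi passed by DESeq2, where 5.08% of all tested genes did. Lower levels with no overlap held for 2 of the 25, against 11.5% of all tested genes. Higher levels with no overlap held for 1 of the 25, against 9.65%. The most abundant was the scavenger receptor gene Stab1, at 1048 ± 79.9 CPM in Il3-/-5xFAD and 813 ± 60.9 CPM in 5xFAD (SD, n = 3 each). Its log2 difference was 0.37 ± 0.09 (SE; limma adjusted p = 0.0807), with every Il3-/-5xFAD library above every 5xFAD library. The transcription factor gene Maf differed by 0.10 ± 0.10, the prostaglandin-degrading enzyme gene Hpgd by 0.20 ± 0.09 and the co-receptor gene Nrp1 by -0.05 ± 0.09 (log2, SE; limma adjusted p of 0.654, 0.305 and 0.835). In every library Stab1, Maf, Hpgd and Nrp1 were each above the summed level of the 9 genes (148 to 212 CPM). The part of microglia in their values was not tested. Cd38, an NAD-consuming ectoenzyme, and Tgfbi, a matrix protein induced by TGF-beta, were lower with no overlap and were named after their values were seen. Cd38 was at 1.37 ± 0.376 CPM in Il3-/-5xFAD and 3.31 ± 0.497 CPM in 5xFAD, and Tgfbi at 88.4 ± 11.6 CPM in Il3-/-5xFAD and 114 ± 11.1 CPM in 5xFAD (SD, n = 3 each). Their limma adjusted p were 0.110 and 0.117. Leaving out Il3-/-5xFAD replicate 3 gave 3 limma calls in this list (Colec12, Lifr and Stab1), where 587 genes were called in all. Leaving out Il3-/-5xFAD replicate 1 gave 1 (Cd36), where 135 were called in all. Colec12, Lifr and Cd36 were named for these calls alone. The median log2 difference of the 25 genes was -0.11, with 17 negative and 8 positive, while 50.1% of all tested genes were negative.

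Clec10a and Cbr2 lie on chromosome 11, which also carries the targeted gene Il3. By gene order in RefSeq (GRCm38.p6), 165 tested genes lie between Il3 and Clec10a and 763 between Il3 and Cbr2. The called gene nearest to Clec10a was Acap1, 12 tested genes away, which fell by 1.07 on the log2 scale (limma adjusted p = 0.0469). That call was lost without Il3-/-5xFAD replicate 2 (limma adjusted p = 0.115), 5xFAD replicate 5 (0.168) or 5xFAD replicate 6 (0.272). It was also lost by edgeR (edgeR adjusted p = 0.0677) and with 5 other settings of limma, over an adjusted p range of 0.0538 to 0.248, but held by DESeq2. Acap1 was the 1 gene called within 25 tested genes on either side of Clec10a, and none lay within 25 of Cbr2. Of the 165 tested genes between Il3 and Clec10a 10 were called, and of the 763 between Il3 and Cbr2 15 were called. Among all tested genes 0.882% were called, and the cause was not tested. Clec10a itself, with a log2 difference of 0.06, did not pass (limma adjusted p = 0.930).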

How the data were processed

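CD45+ CD11b+ brain cells were profiled with a directional polyA kit, per the labels' protocols. The deposited values are CPM, made by the authors in 1 table of 20129 genes. STAR, HTSeq, edgeR and mm9 stand in the submitters' processing notes, while versions, annotation, strand setting and filters are not known here. All deposited values were whole multiples of 1 read (100%, within 0.01 reads), worth 0.0266 to 0.0358 CPM, so reads were recovered. Libraries of a group differed beyond sampling noise (chi-square per degree of freedom from 22.1 to 46.9 over pairs). P-values measure the spread between 3 pools per group.

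The 11900 genes that reached 1 CPM in 3 or more libraries were tested with limma 3.58.1 (R 4.3.3; variance trend, two-sided) on log2(CPM + 1), adjusted over all of them by Benjamini-Hochberg. Alternatives were other pseudocounts, filters, scalings and variance settings, each library left out, and edgeR 4.0.16 (quasi-likelihood, TMM; 60 genes called) and DESeq2 1.42.0 (605 called) on the recovered reads. The limma and edgeR steps were tested on simulated reads, with a fixed spread and with changes only in genes averaging 5 CPM or more. Lyve1 (3.31 CPM) and Folr2 (4.60 CPM) average less, so the simulation does not cover changes at their levels.

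Members, lists and tests were chosen with earlier results of these data known. The naming rule took all 9 members, Il3, the called or else most abundant genes of each list, and the 5 genes of most similar profile. Other lists are given as sums, with single genes beside a member or, for blood endothelium, where they moved in opposite directions. Of the lists, blood endothelium summed to 54.0 to 55.7 CPM in Il3-/-5xFAD and 58.1 to 76.1 CPM in 5xFAD, and fibroblasts to 3.63 to 12.0 CPM in Il3-/-5xFAD and 8.26 to 15.0 CPM in 5xFAD. Within blood endothelium, Pecam1 was at 41.5 ± 2.80 CPM in Il3-/-5xFAD and 35.4 ± 3.09 CPM in 5xFAD (SD, n = 3 each). Flt1 was at 9.25 ± 3.38 CPM in Il3-/-5xFAD and 27.4 ± 11.4 CPM in 5xFAD (SD, n = 3 each). Gene order, promoters and transcripts came from GRCm38, another build than mm9, and were matched by symbol.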

Additional observations from a re-analysis of the deposited data

How the results depend on the processing

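The count of 0 of 9 genes called held in all 16 alternatives; the filter on a mean of 5 CPM left Lyve1 and Folr2 untested. The log2 differences of Lyve1 (-0.998 to -0.38), Folr2 (-0.98 to -0.40), F13a1 (-0.58 to -0.29), Mrc1 (-0.34 to -0.08), Pf4 (-0.47 to -0.12) and Cbr2 (-0.58 to -0.12) were negative in every alternative that tested them. The difference of Folr2 was larger than that of Lyve1 with a pseudocount of 5 and without Il3-/-5xFAD replicate 2, 5xFAD replicate 4 or 5xFAD replicate 5. Cd163 changed sign with quantile normalization (0.0174), edgeR (0.0098) and DESeq2 (0.0092), and ran from -0.32 to 0.12 with a library left out. Clec10a ran from -0.0477 to 0.257, Dab2 from -0.0686 to 0.0224 and Nrp1 from -0.14 to 0.00079 in those fits. Over all genes, 8 were called with no filter, 68 with the mean filter, 64 with median-ratio rescaling, 10 without the variance trend, 60 by edgeR and 605 by DESeq2, and 11 to 587 with a library left out. The wider list had 2 calls by DESeq2 and 0 to 3 with a library left out, and the members lower without overlap numbered 2 with median-ratio rescaling, 2 with quantile normalization and 3 to 5 with a library left out; alternatives for that count and for genes outside the 9 were chosen after seeing the data. The causes were not tested. For levels without overlap, the share of all tested genes was not counted in these alternatives. Leaving out a library can only keep or raise such a count. No paired analysis was possible because the groups shared no replicate number. Depth limits Lyve1 most, with 59 reads in Il3-/-5xFAD replicate 2.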
